A study of Mus musculus with 35 samples.

Results

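The retina of non-diabetic mice was compared after a round of microglia depletion and repopulation with the retina of non-diabetic mice that the labels give no depletion. The 5 ND repopulated samples are wild-type, non-diabetic retinas labelled with 2 weeks of depletion followed by 2 weeks of recovery, and the 6 ND samples are wild-type, non-diabetic retinas with no other treatment named. These 11 samples are part of 35 in 7 groups, and the comparison covers all 25655 genes of the annotation, the same genes as in the rest of the series. RNA was extracted from retinas and sequenced as poly-A selected, strand-marked libraries with paired reads of 100 bp. The labels write the depleting treatment as DTx, while the series' design text names PLX-5622, a CSF1 receptor inhibitor, in CX3CR1-WT mice, so the agent is not settled here and the step is called depletion. The labels give neither strain, sex nor age for these groups, and do not tie each sample to an animal of its own. The spread between samples behind the p-values may therefore be technical. Whether the authors' model took that spread from these 11 samples only or also from other groups is not given in the sources used here. All 6 comparisons against ND hold a p for the same 19013 genes. These include genes at a level of 0 in both groups here, so the fit probably drew on other groups too.

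2 contrasts of the same study are set beside this one where they show how it differs. D10 repopulated (5 samples, 10 weeks of diabetes, 2 weeks of depletion and 2 weeks of recovery) was set against D10 (5 samples, 10 weeks of diabetes), and D8 depleted (4 samples, 8 weeks of diabetes with 2 weeks of depletion) was set against D8 (5 samples, 8 weeks of diabetes). These retinas were also labelled wild-type. The D8 and D10 labels add PBS, which the ND label does not. A depleted non-diabetic retina before recovery was not analysed here, so the depth of the depletion in non-diabetic mice has no measurement below.

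Microglia are the resident macrophages of the retina. They survey the synaptic layers through purinergic and fractalkine receptors, clear debris and supply complement C1q, and their survival depends on signals through the CSF1 receptor. When they are removed and the removing agent is withdrawn, new microglia refill the retina from surviving cells or from precursors outside it. The comparison therefore asks what differs in a retina without diabetes once this refilling has had time to occur.

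Every log2 fold change, p and FDR-adjusted p below is the authors' own value from the authors' deposited table of the comparison. The files hold no value for a single sample, so no spread, depth or replicate check can be shown per library. Each table gives the larger of the 2 group means, in a unit that the sources used here do not state. Where the ND mean could be read from another table against ND, both means are deposited values, and otherwise the smaller one was obtained from the deposited fold change and is called implied. The standard error (SE) of each log2 fold change was derived from its deposited p with a normal quantile, and each 95% interval from that SE. A gene is called where its deposited FDR p was below 0.05. Fold changes of genes whose level is near 0 depend on the authors' model.

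24 of 15402 genes with a deposited FDR p were called, which is 0.156% of them. 13 were higher in ND repopulated retina (0.0844%) and 11 were lower (0.0714%). In the authors' deposited tables the share was 0.446% for D10 repopulated against D10 (75 of 16826 genes, 0.178% higher and 0.267% lower) and 10.8% for D8 depleted against D8 (1826 of 16982, 4.9% lower). These shares also depend on group size and spread. At an unadjusted p below 0.05 the non-diabetic comparison gave 435 of 19013 genes (2.29%). The 19013 include genes at a level of 0 in both groups, so shares over all genes tested also count genes that were not detected. The median log2 fold change of all genes was 0.00, and it is the value set beside the medians of gene lists below. 13 of the 24 called genes differed by at least 1 on the log2 scale, 7 of them higher and 6 lower.

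**Figure D1:**
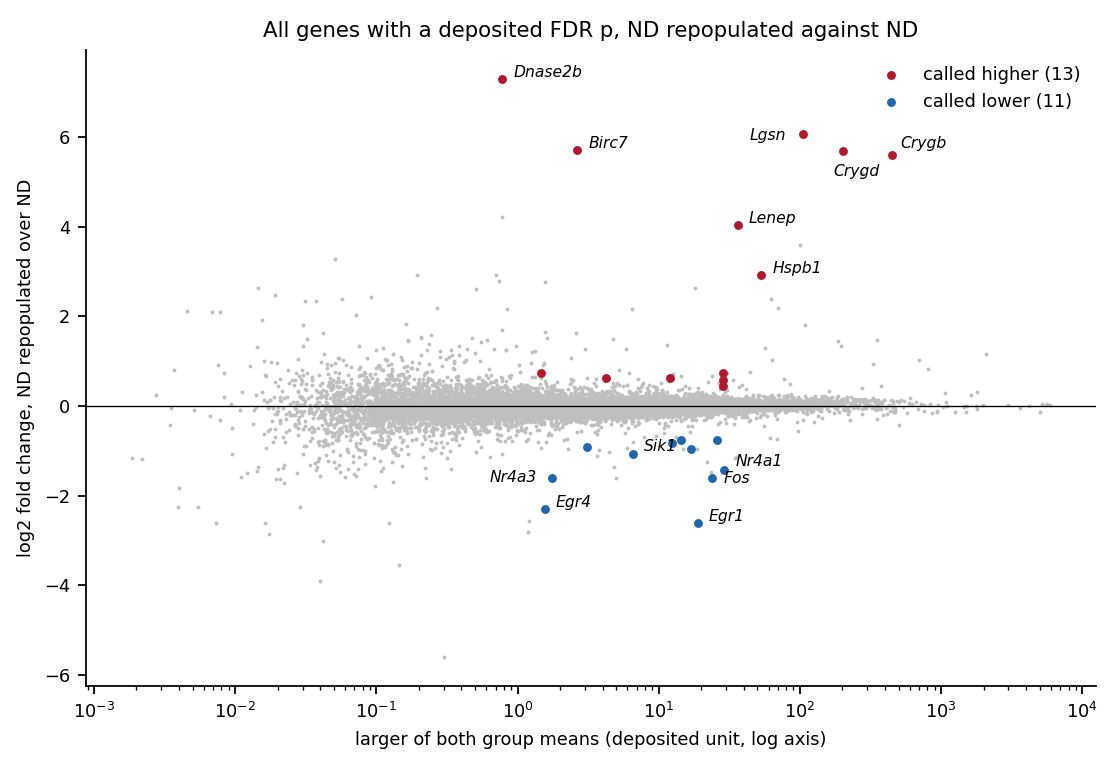
Each point is 1 gene with a deposited FDR p; the x axis (log scale) is the larger of both group means in the deposited unit and the y axis is the log2 fold change of ND repopulated over ND. The 13 genes called higher (red) and the 11 called lower (blue) lie off a cloud centred at 0, with the lens genes Dnase2b, Lgsn, Birc7, Crygd, Crygb and Lenep at the top and Egr1 and Egr4 at the bottom of the called genes.

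Microglia genes were at similar levels in both groups, within the intervals given here. Of 28 homeostatic microglia genes measured, none was called, against 0.156% of all genes, and none had an unadjusted p below 0.05, against 2.29%. At those shares a list of this size would seldom hold a call, so the intervals carry the comparison. 17 had a positive and 11 a negative log2 fold change, with a median of 0.07 against 0.00 over all genes. Cx3cr1, the fractalkine receptor that marks microglia in the retina, averaged 0.793 in ND repopulated and 0.713 in ND retina in the authors' deposited tables, a log2 fold change of 0.16 with a 95% interval of -0.46 to 0.78. The interval includes no change. In bulk retina, fewer cells of a type and less RNA per cell cannot be told apart.

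The receptors of surveying microglia gave the same picture. P2ry12, the ADP receptor that steers microglial processes, averaged 0.506 in ND repopulated and 0.447 in ND retina (log2 0.18, interval -0.50 to 0.86). Tmem119, a microglia-restricted membrane protein, averaged 0.695 in ND repopulated and 0.641 in ND retina (log2 0.12, interval -0.53 to 0.77). Csf1r, the receptor on which microglial survival depends, averaged 1.53 in ND repopulated and 1.31 in ND retina (log2 0.22, interval -0.21 to 0.66). Each of these intervals includes no change.

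Ctss and the C1q chains had narrower intervals. Ctss, the lysosomal protease cathepsin S, was at an implied 5.85 in ND repopulated and at 6.16 in ND retina in the authors' deposited table (log2 -0.08, interval -0.39 to 0.24). The C1q chains, which start the classical complement cascade and come largely from microglia, had log2 fold changes of 0.00 for C1qa (interval -0.39 to 0.39), 0.18 for C1qb and 0.09 for C1qc. Sall1, Siglech, Gpr34, Trem2, Selplg and Aif1 had positive values between 0.10 and 0.41, and P2ry13, Fcrls, Itgam, Slc2a5 and Slco2b1 had negative ones between -0.14 and -0.33. The highest value of the list, 1.45 for Crybb1, belongs to a gene that is also a lens crystallin.

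Set beside the diabetic retina, these values differ for some genes. In the authors' deposited table of D10 repopulated against D10, 4 of the 28 homeostatic genes were called lower, among them Cx3cr1 (-1.96), Ctss (-1.48) and Itgam (-1.28), and so were the 3 C1q chains (C1qa -1.34, C1qb -1.12, C1qc -1.12). In the deposited table of D8 depleted against D8, 16 of the 28 were called lower, with -6.98 for Cx3cr1 and -3.15 for Csf1r, and C1qa, outside that list, was called lower at -6.92. The list's median was 0.07 in the non-diabetic comparison, -0.45 in D10 repopulated against D10 and -1.77 in D8 depleted against D8.

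The difference between the non-diabetic and the diabetic change was tested for each gene, since those 4 groups share no sample. The test took the ND repopulated log2 fold change minus the D10 repopulated one, with both SEs, and was adjusted over 18263 genes by the Benjamini-Hochberg method. It treats both SEs as independent. If the non-diabetic comparison was fitted together with the diabetic groups, the SEs would not be fully independent, and this was not tested. 28 genes (0.153%) passed, 16 with a positive and 12 with a negative difference. The count was 106 with SEs from a t quantile, and 13 without lens, blood and surface epithelium genes, an alternative chosen after seeing the data. 4 of them are microglia genes. The difference was 2.12 for Cx3cr1 (SE 0.45, interval 1.24 to 3.00, adjusted p of 0.0032), 1.41 for Ctss (SE 0.26, adjusted p of 0.00031), 1.34 for C1qa (SE 0.30, adjusted p of 0.0097) and 1.31 for C1qb (SE 0.31, adjusted p of 0.016). All 4 had log2 fold changes near 0 in the non-diabetic comparison and negative ones in D10 repopulated against D10. The second value also depends on the level in D10. The 19 classical complement genes had a median of 0.999 in D10 against ND and 0.328 in D10 repopulated against ND. The 28 homeostatic genes had -0.167 and -0.673 in the same order. These medians share the ND samples, and the part of the D10 level in the 4 differences was not tested. The difference did not pass for Csf1r (1.08, interval 0.40 to 1.76, adjusted p of 0.41), Tmem119 (1.14, interval 0.10 to 2.17, adjusted p of 1.00) or P2ry12 (-0.01, interval -1.14 to 1.11, adjusted p of 1.00). The values for Csf1r and Tmem119 had the same sign as those that passed, and a p that misses the threshold does not show that these genes behave otherwise.

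**Figure D2:**
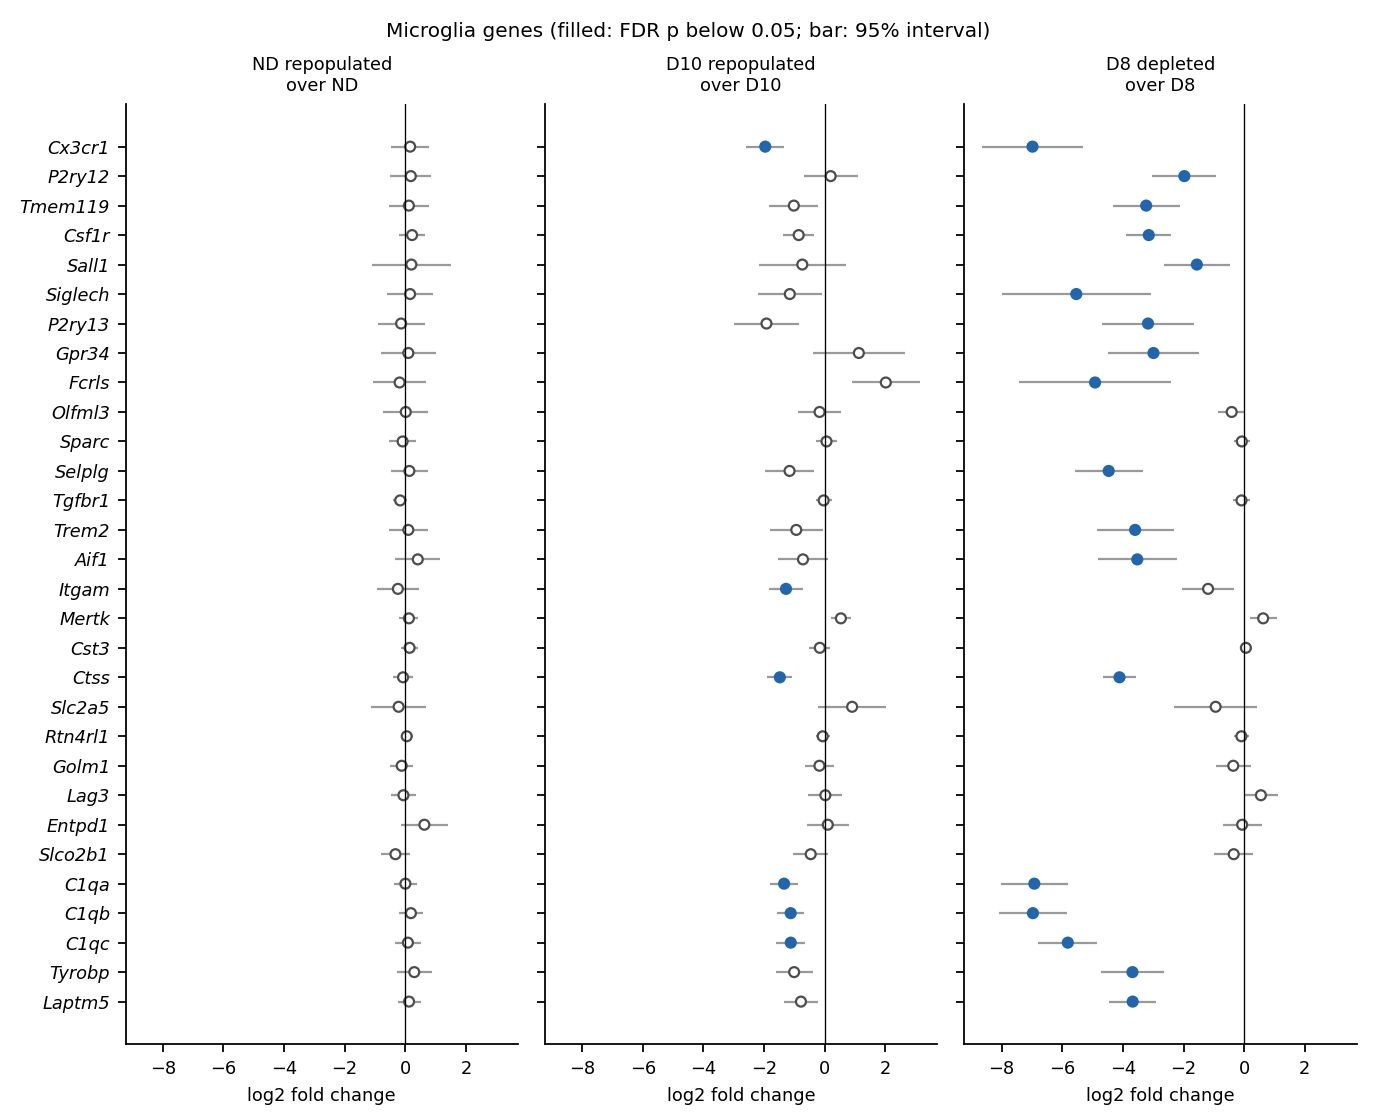
Log2 fold changes of selected microglia genes and the C1q genes in 3 deposited comparisons on 1 shared x axis: ND repopulated over ND, D10 repopulated over D10 and D8 depleted over D8; filled points passed an FDR p below 0.05 and bars are 95% intervals. In the left panel every point lies near 0 and none is filled, while Cx3cr1 is at -1.96 in the middle and -6.98 in the right panel.

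Lists of related myeloid function had medians near 0 as well. With 0.156% of all genes called, a list of this size would seldom hold a call. No member was called among 27 activated microglia genes (median 0.02), 26 myeloid receptor and lysosome genes (median 0.06) or 20 genes of CSF1 receptor signalling and myeloid factors (median 0.03). Apoe, the lipid carrier that rises in activated microglia but is also made by glia of the retina, was at 443 in ND repopulated and 407 in ND retina in the authors' deposited tables (log2 0.12, interval -0.22 to 0.47). Gpnmb, a membrane glycoprotein of phagocytes and of pigmented cells, had the smallest p of the activated list, with a log2 value of -0.98 that was not called (the authors' p = 0.00113, FDR p = 0.321). No member of the interferon list was called apart from Irf7, described below. Among the other 29 interferon genes none had an unadjusted p below 0.05, and their median was 0.08. Mki67, a proliferation antigen, was at an implied 0.0196 in ND repopulated and at 0.0200 in ND retina, and none of the 26 cell cycle genes was called.

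The set of genes lower in ND repopulated retina was led by immediate early genes. These genes are transcribed within minutes of a stimulus, without new protein synthesis, and encode mainly transcription factors whose RNAs decay quickly. 6 of the 11 genes called lower were on the list of 27 immediate early genes, and none of the list was called higher. 13 of the 27 had an unadjusted p below 0.05, all with negative values. Over all genes tested 1.22% had such a p with a negative value and 1.07% with a positive one. The median of the list was -0.44, against 0.00 over all genes. 4 members had positive values, which were Npas4 (0.20), Bdnf (0.14), Atf3 (0.09) and Homer1 (0.02).

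The EGR zinc finger factors held the largest falls. Egr1, which is induced by light and by synaptic activity in retina, was at an implied 3.10 in ND repopulated and at 18.9 in ND retina in the authors' deposited table. It fell by 2.61 on the log2 scale (SE 0.41, the authors' FDR p = 1.475e-06). Egr4 was at an implied 0.314 in ND repopulated and at 1.56 in ND retina, and fell by 2.31 (SE 0.40, the authors' FDR p = 1.892e-05). Egr2 and Egr3 had log2 values of -2.62 (SE 0.96) and -0.75 (SE 0.29) that were not called, with the authors' FDR p = 1.00 each. Egr2 was at an implied 0.0202 in ND repopulated and at 0.124 in ND retina. Nab2, a co-repressor that binds EGR proteins and that EGR factors themselves induce in other cells, rose in the same samples, with 12.1 in ND repopulated and 7.89 in ND retina (log2 0.62, SE 0.15, the authors' FDR p = 0.013). Its relative Nab1 had a log2 value of 0.31 that was not called (the authors' FDR p = 0.929).

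The NR4A orphan nuclear receptors and the AP-1 genes made up most of the rest. Nr4a1 was at an implied 10.8 in ND repopulated and at 29.2 in ND retina in the authors' deposited table, a fall of 1.44 (log2 -1.44, SE 0.25, FDR p = 4.259e-05). Nr4a3 was at an implied 0.573 in ND repopulated and at 1.74 in ND retina (log2 -1.60, SE 0.30, the authors' FDR p = 0.00022). The third member, Nr4a2, had a log2 value of -0.58 and was not called (the authors' FDR p = 0.104). Fos, the partner of JUN proteins in AP-1, was at an implied 7.87 in ND repopulated and at 24.02 in ND retina (log2 -1.61, SE 0.31, the authors' FDR p = 0.000246). Of its partners, Junb had -0.95 (the authors' p = 0.00069, FDR p = 0.243) and Jun -0.29, and Jund, at over 50 in both groups, had -0.01. The AP-1 members thus spread over the range of the list, with Fos as the only one called. Arc, a synaptic scaffold induced by activity, had -0.79 and was not called.

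Dusp1, Sik1 and Sik2 were called lower as well. Dusp1, a phosphatase that switches off MAP kinases and is itself an immediate early gene, was at an implied 8.53 in ND repopulated and at 14.5 in ND retina in the authors' deposited table (log2 -0.76, SE 0.14, FDR p = 5.732e-05). The salt-inducible kinases hold the CRTC coactivators of CREB in the cytoplasm, and Sik1 is a CREB target. Sik1 was at an implied 3.12 in ND repopulated and at 6.53 in ND retina (log2 -1.06, SE 0.18, the authors' FDR p = 1.277e-05). Sik2 was at an implied 7.02 in ND repopulated and at 12.4 in ND retina (log2 -0.82, SE 0.13, FDR p = 2.121e-06), while Sik3 had a log2 value of 0.14 (the authors' p = 0.25). The genes upstream were not called. Creb1, which encodes CREB, and its inducible relative Crem had 0.01 each, and Crtc1, Crtc2 and Crtc3 had 0.10, 0.05 and 0.18.

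**Figure D3:**
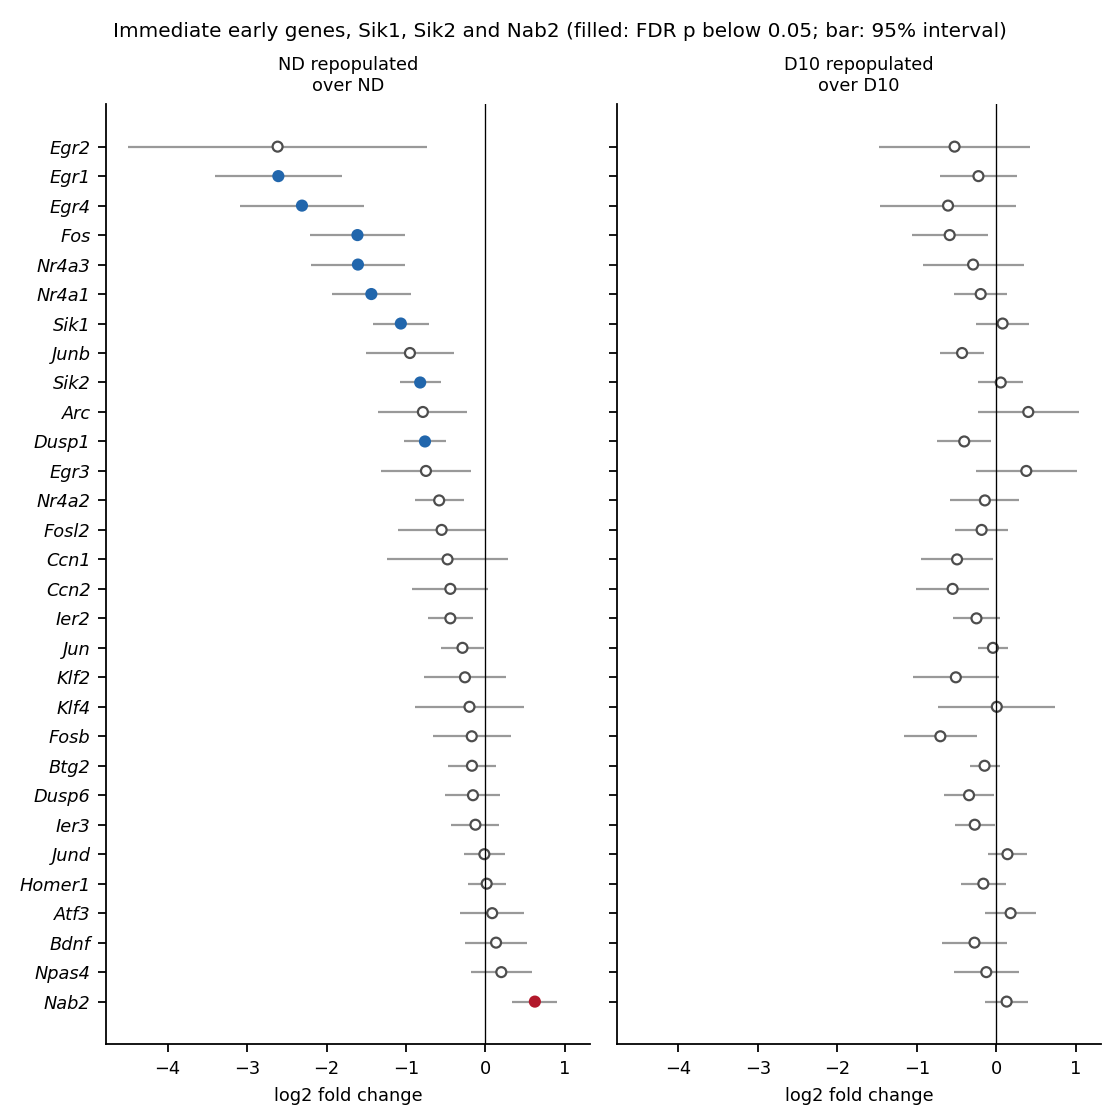
Log2 fold changes of the immediate early list with Sik1, Sik2 and Nab2, in ND repopulated over ND (left) and D10 repopulated over D10 (right) on 1 shared x axis; filled points passed an FDR p below 0.05 and bars are 95% intervals. On the left 8 genes are filled on the negative side, from Egr1 at -2.61 to Dusp1 at -0.76, and Nab2 is filled at 0.62; on the right none is filled.

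The promoters of the genes that fell can be read beside these values, because several immediate early genes are known CREB targets. RefSeq promoter entries (build GRCm38.p6) matched 9 of the 11 lower genes and 12 of the 13 higher ones. The 250 bases before each start site were searched on both strands for the cAMP response element half-site TGACG, whose other strand reads CGTCA. At least 1 half-site was found for 7 of the 9 lower and 2 of the 12 higher genes matched, and at least 2 for 5 of the lower and none of the higher genes. Those 5 are all on the immediate early list. Of the higher genes matched, 6 are lens genes, and no lens gene held a half-site. The contrast thus partly follows from which genes were called, and promoters of like base content were not compared. Over all 32851 promoter entries, 17.8% held at least 1, 3.90% at least 2 and 0.137% at least 4. These shares are per entry, over 27025 genes, whereas a gene was counted above where any of its entries held a half-site. Rhobtb1 was counted through only the last of its 3 entries. The full palindrome TGACGTCA is present in 1.55% of all entries, and among these genes in Dusp1. A match is a description of the letters, not a bound site. The 5 promoters with at least 2 half-sites are printed on the strand of each gene, 5′ to 3′, with the half-sites in capitals.
Nr4a1, chr15:101266596-101266845, plus strand: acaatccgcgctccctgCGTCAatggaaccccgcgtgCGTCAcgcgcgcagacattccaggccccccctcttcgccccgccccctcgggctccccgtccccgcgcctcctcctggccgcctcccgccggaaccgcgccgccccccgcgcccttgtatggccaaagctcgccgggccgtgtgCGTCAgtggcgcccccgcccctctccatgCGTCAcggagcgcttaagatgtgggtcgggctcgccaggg
Nr4a3, chr4:48045055-48045304, plus strand: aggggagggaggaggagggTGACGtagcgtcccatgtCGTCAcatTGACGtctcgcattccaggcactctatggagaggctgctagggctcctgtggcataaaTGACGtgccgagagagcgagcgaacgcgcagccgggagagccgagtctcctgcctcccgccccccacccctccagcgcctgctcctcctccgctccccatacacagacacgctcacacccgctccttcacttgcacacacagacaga
Dusp1, chr17:26508473-26508722, minus strand: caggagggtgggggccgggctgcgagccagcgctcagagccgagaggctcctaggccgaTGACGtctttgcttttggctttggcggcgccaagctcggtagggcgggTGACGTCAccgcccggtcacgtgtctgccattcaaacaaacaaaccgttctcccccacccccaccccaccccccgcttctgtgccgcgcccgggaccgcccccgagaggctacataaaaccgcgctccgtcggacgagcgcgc
Fos, chr12:85473640-85473889, plus strand: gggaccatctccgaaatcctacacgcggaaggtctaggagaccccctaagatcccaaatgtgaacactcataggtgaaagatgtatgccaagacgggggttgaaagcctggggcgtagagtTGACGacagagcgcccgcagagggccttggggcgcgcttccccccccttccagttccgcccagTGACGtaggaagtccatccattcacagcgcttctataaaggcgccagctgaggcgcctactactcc
Egr4, chr6:85513590-85513839, minus strand: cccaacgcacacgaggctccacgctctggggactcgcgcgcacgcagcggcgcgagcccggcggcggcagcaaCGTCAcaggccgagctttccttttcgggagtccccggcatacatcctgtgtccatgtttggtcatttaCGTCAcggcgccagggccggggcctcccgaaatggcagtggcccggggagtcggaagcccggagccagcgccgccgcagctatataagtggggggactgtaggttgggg

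Nr4a1 and Nr4a3 each held 4 half-sites, among the 0.137% of entries with that many. Counting back from the start site, with -1 as the base before it, they began at -233, -213, -69 and -40 in Nr4a1 and at -231, -213, -205 and -147 in Nr4a3. In Dusp1 the pair that overlaps in the full palindrome began at -143 and -140, and another half-site at -191. Fos had them at -129 and -66, and Egr4 at -177 and -109. Sik2 and Rorb were matched and held none in this window. The genes with no entry were Egr1 and Sik1 among the lower and Taf4b among the higher genes, so the counts above leave out the gene with the largest called fall. The CArG box, the element of serum response factor, was not in any window of the genes matched, against 1.47% of all entries, and this says only that those letters are not in these windows.

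Values of the same genes in the other deposited comparisons against ND rest on the same 6 ND samples and are given only side by side. In each of them 6 to 12 of the 27 immediate early genes were called lower and 1 to 5 higher. Of all genes, 2.91% to 28.5% were called there. The list medians were -0.25, -0.21, -0.05, -0.28 and -0.53 in D6, D8, D10, D10 repopulated and D8 depleted against ND, beside -0.44 here. Of the 11 genes called lower here, 10 or 11 had a negative value in each. Nr4a3 had -2.64, -2.73, -2.45, -2.73 and -3.12 in D6, D8, D10, D10 repopulated and D8 depleted against ND, beside -1.60 here. Egr4 had -2.18, -2.13, -2.08, -2.67 and -2.92 in the same order, beside -2.31 here, and Sik2 -1.22, -1.07, -1.08, -1.02 and -1.60, beside -0.82. Egr1 ran differently, with 0.35, -0.94, -0.65, -0.87 and -1.13 beside -2.61 here, and Fos had -0.03, -0.19, 0.27, -0.31 and -1.31 beside -1.61.

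The contrast with diabetic retina does not share those samples. In the authors' deposited table of D10 repopulated against D10 no immediate early gene was called, and the median of the list was -0.25. Egr1 had -0.22 there, a difference of -2.38 from the non-diabetic value (SE 0.48, interval -3.32 to -1.45, adjusted p of 0.0011). Nr4a1 differed by -1.24 (SE 0.31, adjusted p of 0.036), Sik1 by -1.15 (SE 0.25, adjusted p of 0.0048) and Sik2 by -0.88 (SE 0.19, adjusted p of 0.0070). The difference did not pass for Fos (-1.03, interval -1.79 to -0.26, adjusted p of 0.88), Egr4 (-1.70, adjusted p of 0.61), Nr4a3 (-1.31, adjusted p of 0.52) or Dusp1 (-0.36, adjusted p of 1.00).

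3 further genes were lower and belong to other pathways. Irf7, the transcription factor that amplifies type I interferon, was at an implied 8.75 in ND repopulated and at 17.0 in ND retina in the authors' deposited table (log2 -0.96, SE 0.22, FDR p = 0.00883). Its change differed from that in diabetic retina by -1.05 (adjusted p of 0.036). Interferon targets were not called with it, and Ifit1 had 0.27, Isg15 -0.01 and Oasl2 0.08. Rorb, a nuclear receptor that acts in the development of rods and horizontal cells, was at an implied 15.3 in ND repopulated and at 25.97 in ND retina (log2 -0.76, SE 0.17, the authors' FDR p = 0.00869). Rhobtb1, an atypical small GTPase family member, was at an implied 1.64 in ND repopulated and at 3.10 in ND retina (log2 -0.92, SE 0.20, the authors' FDR p = 0.0052). Irf7, Rhobtb1, Sik2 and Dusp1 overlap a gene on the opposite strand in the deposited coordinates, and whether counting used the strand is not given in the sources used here. A930033H14Rik, with a larger group mean of 6.60, had a log2 value of -0.79 (the authors' p = 0.012), Phrf1 0.00, Ppp2r1b -0.17 and Ergic1 0.13. The part of overlapping genes in the called values was not tested.

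The clock list holds Rorb as its only called gene of 22, where 0.156% of all genes were called. Per1 and Per2, core clock repressors that CREB also drives, had -0.41 (the authors' p = 0.0072) and -0.36 (p = 0.0033), and Ciart, a clock-controlled repressor, -0.42 (p = 0.0067), none called. Arntl, Clock, Nr1d1, Dbp and Cry1 lay between -0.09 and 0.14. The sampling time of day is not given in the sources used here. Ciart differed from its value in diabetic retina by -0.93 (adjusted p of 0.012), and Drd4, the dopamine receptor of photoreceptors, by -1.13 (adjusted p of 0.036), with -0.56 here and 0.57 in D10 repopulated against D10.

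**Figure D4:**
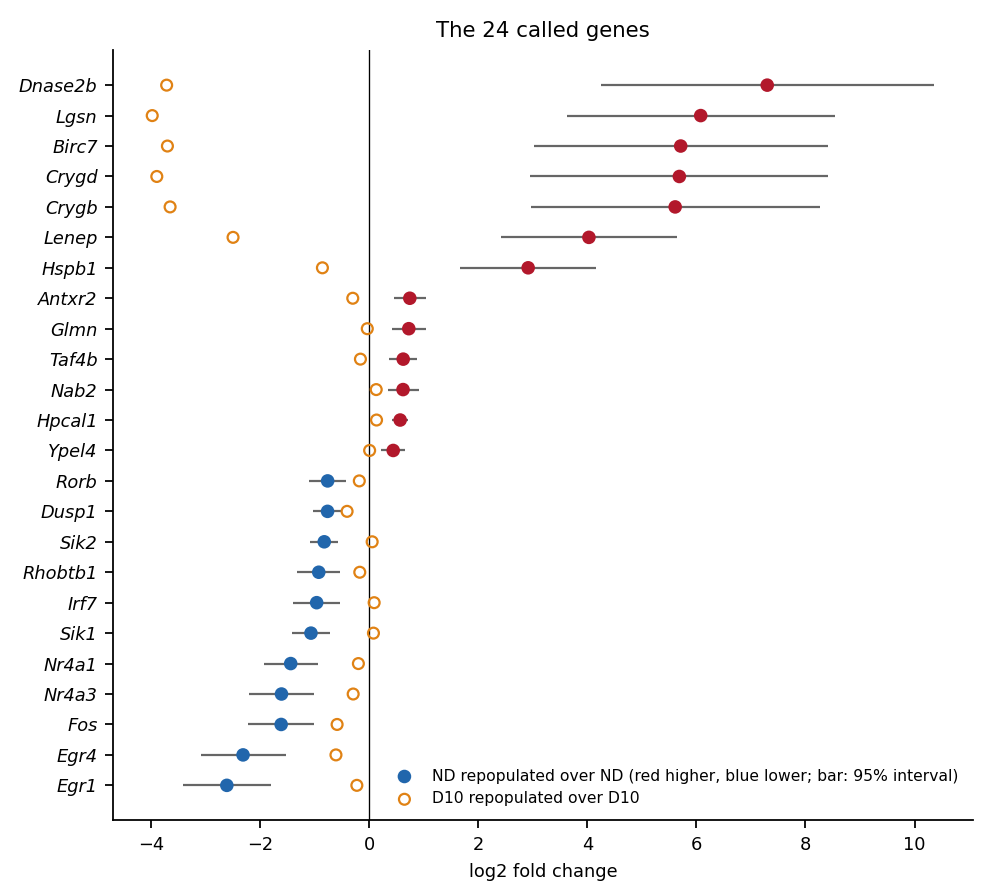
The 24 genes called in ND repopulated over ND (filled points, bars are 95% intervals, red higher and blue lower) with the value of the same gene in D10 repopulated over D10 (open orange circles). The 6 lens genes are at 4.03 to 7.30 here and at -2.49 to -3.97 in the diabetic comparison, and Egr1 is at -2.61 here and -0.22 there.

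On the higher side, 6 of the 13 genes are lens genes, and they hold the 6 largest rises. Lgsn encodes lengsin, a protein of lens fibres, and was at 105 in ND repopulated and 1.57 in ND retina in the authors' deposited tables (log2 6.08, SE 1.25, FDR p = 0.0016). Crygb (chr1:65119378-65121447 in GRCm39) encodes a gamma crystallin and was at 448 in ND repopulated and 9.32 in ND retina (log2 5.61, SE 1.35, the authors' FDR p = 0.023). Its neighbour Crygd was at 201 in ND repopulated and 3.96 in ND retina (log2 5.69, SE 1.39, the authors' FDR p = 0.030). Dnase2b, the nuclease that digests DNA when lens fibres lose their nuclei, rose by 7.30, Birc7, an inhibitor of apoptosis, by 5.71, and Lenep, a lens epithelial protein, by 4.03. Dnase2b and Birc7 had ND means near 0. Dnase2b was at 0.778 in ND repopulated and an implied 0.00494 in ND retina, and Birc7 at 2.64 and 0.0478. Without the lens lists and Lenep, an alternative chosen after seeing the data, 17 genes were called, 6 higher and 11 lower. The SEs of the 6 lens genes, 0.82 to 1.56, were many times the median SE of 0.16 over all genes. The gamma crystallin genes are related in sequence, so the split of reads between the most similar of them is uncertain. Lenep overlaps Flad1 on the same strand, and Flad1 had a log2 value of 0.31 (the authors' p = 0.022). Lgsn and Dnase2b each overlap a gene on the opposite strand.

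The lens lists show how unevenly this was spread. All 6 of the Cryga to Crygf genes had positive values (median 4.71), and 2 were called. The 8 alpha and beta crystallins, the other main crystallins of the lens, also had positive values (median 1.05), but none was called and their SEs were 0.99 to 1.41. Cryaa, for example, averaged 1803 in ND repopulated and 1484 in ND retina (log2 0.31, interval -2.45 to 3.08). Foxe3, a factor of the lens epithelium, had -0.53 and Mip, the main fibre water channel, 1.03, and neither was called. Lens is not part of the retina, although retina makes some alpha and beta crystallin of its own. With group means only, how many of the 5 and 6 samples carry the lens genes cannot be read from these files. In D10 repopulated against D10 the same genes lay on the other side of 0, with a median of -3.44 over Cryga to Crygf and Lgsn (-3.97) and Lenep (-2.49) called lower. The list of 16 lens crystallins also varied without repopulation. Its medians were 1.75, -4.31 and -0.36 in D6, D8 and D10 against ND, which share the ND samples. In D6 6 were called higher and in D8 10 lower, where 23.4% and 2.91% of all genes were called, and in D10 none was called.

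Hspb1, a small heat shock protein related to the alpha crystallins, was at 53.4 in ND repopulated and at an implied 7.07 in ND retina in the authors' deposited table (log2 2.92, SE 0.64, FDR p = 0.00445). No other gene of the heat shock and gliosis lists was called. Gfap, the intermediate filament that rises in stressed Muller glia, had 0.12 (interval -0.44 to 0.67). Hmox1, an enzyme of haem breakdown induced by oxidative stress, had 2.16 and lay just outside the threshold (the authors' FDR p = 0.0742), as did Ces5a, a carboxylesterase, at 2.93 (FDR p = 0.0597). Inside it the nearest genes were Ypel4 (the authors' FDR p = 0.0488) and Crygd (FDR p = 0.0299). Hspb1 and the lens genes rose in the same comparison, and the part of lens RNA in the Hspb1 value was not tested.

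The other 6 rises were small and had small errors. Hpcal1, a neuronal calcium sensor (chr12:17740857-17841934 in GRCm39), had the smallest p of all genes. It was at 28.6 in ND repopulated and at an implied 19.3 in ND retina in the authors' deposited table (log2 0.57, SE 0.08, p = 2.383e-13, FDR p = 3.67e-09). Antxr2, a receptor for matrix proteins, rose by 0.75 (SE 0.15) and overlaps C430019N01Rik, which had no deposited p, on the same strand. Glmn, a regulator of cullin ubiquitin ligases, rose by 0.73 (SE 0.16) and Taf4b, a subunit of TFIID, by 0.63 (SE 0.13). Nab2 is given above, and Ypel4 rose by 0.44 (SE 0.11), a call that was lost when the p was adjusted over every gene with a deposited p (adjusted p of 0.060). In the 5 other comparisons against ND, which share the ND samples, the values were 0.45 to 0.65 for Hpcal1, 0.57 to 0.95 for Glmn and 0.68 to 0.99 for Taf4b. In D10 repopulated against D10, where those samples have no part, their values were 0.14, -0.03 and -0.16. Of these the difference passed for Taf4b (0.78, adjusted p of 0.037), as it did for Antxr2 (1.05, SE 0.22, adjusted p of 0.0037), and it did not for Hpcal1 (0.43, adjusted p of 0.49) or Glmn (0.76, adjusted p of 0.055). Glmn and Nab2 overlap genes on the opposite strand, and Rpap2, beside Glmn, had 0.26 (the authors' p = 0.033).

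The pigment epithelium adjoins the retina. Of 21 pigment epithelium genes none was called, against 0.156% of all genes. 12 had positive and 9 negative values, and the median was 0.08. 6 had an unadjusted p below 0.05 with a positive value and 4 with a negative one, against 1.07% and 1.22% of all genes. 2 subsets, chosen after their values were seen, are given first. The genes for the visual cycle and for transport, Rpe65, Lrat, Rdh5, Rgr and Ttr, were all higher in value (log2 0.74 to 1.36) with an unadjusted p below 0.05, whereas 7 pigment synthesis genes were all lower in value (median -1.12), 4 of them with such a p. The remaining 9 genes of the list had 7 positive and 2 negative values, with a median of 0.14, and 1 of them, Ermn (0.84), had such a p. Rpe65, the retinoid isomerase, averaged 5.83 in ND repopulated and 2.41 in ND retina in the authors' deposited tables, and Pmel, the scaffold of melanosomes, an implied 1.87 in ND repopulated and 4.79 in ND retina. In D10 repopulated against D10, Rpe65 (1.81), Rgr (1.60) and Ttr (1.68) were called higher and Pmel (-1.43) was called lower. The difference from the non-diabetic value did not pass for Rpe65 (-0.54, interval -1.96 to 0.89) or Pmel (0.07, interval -1.01 to 1.15).

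None of the 12 blood genes measured was called in non-diabetic retina, against 0.156% of all genes. The 4 globin genes had values of -0.93 to -1.25 with SEs of 0.77 to 0.82, and Hbb-bs averaged an implied 15.5 in ND repopulated and 34.8 in ND retina. In D10 repopulated against D10 all 4 were called higher (median 3.83), and so they were in D8 depleted against D8 (2.11 to 2.23). The difference between the non-diabetic and the D10 change passed for each globin gene, from -4.80 for Hbb-bt to -5.06 for Hba-a1. It also depends on the level in D10, and the part of that level was not tested. Among 18 monocyte and neutrophil genes none was called, against 0.156% of all genes. 4 had an unadjusted p below 0.05 with a negative value, against 1.22% of all genes. The median of the 18 was -1.30, and -0.23 over the 8 members left without the lowest 40% of levels. The neutrophil genes S100a8 and S100a9 had -2.58 (the authors' p = 0.0011) and -2.80 (p = 0.00038), and Ccr2, the monocyte chemokine receptor, was near 0 in both groups at 0.00583 in ND repopulated and 0.00482 in ND retina. The globin copies share sequence, so the split of reads between them is uncertain as well.

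**Figure D5:**
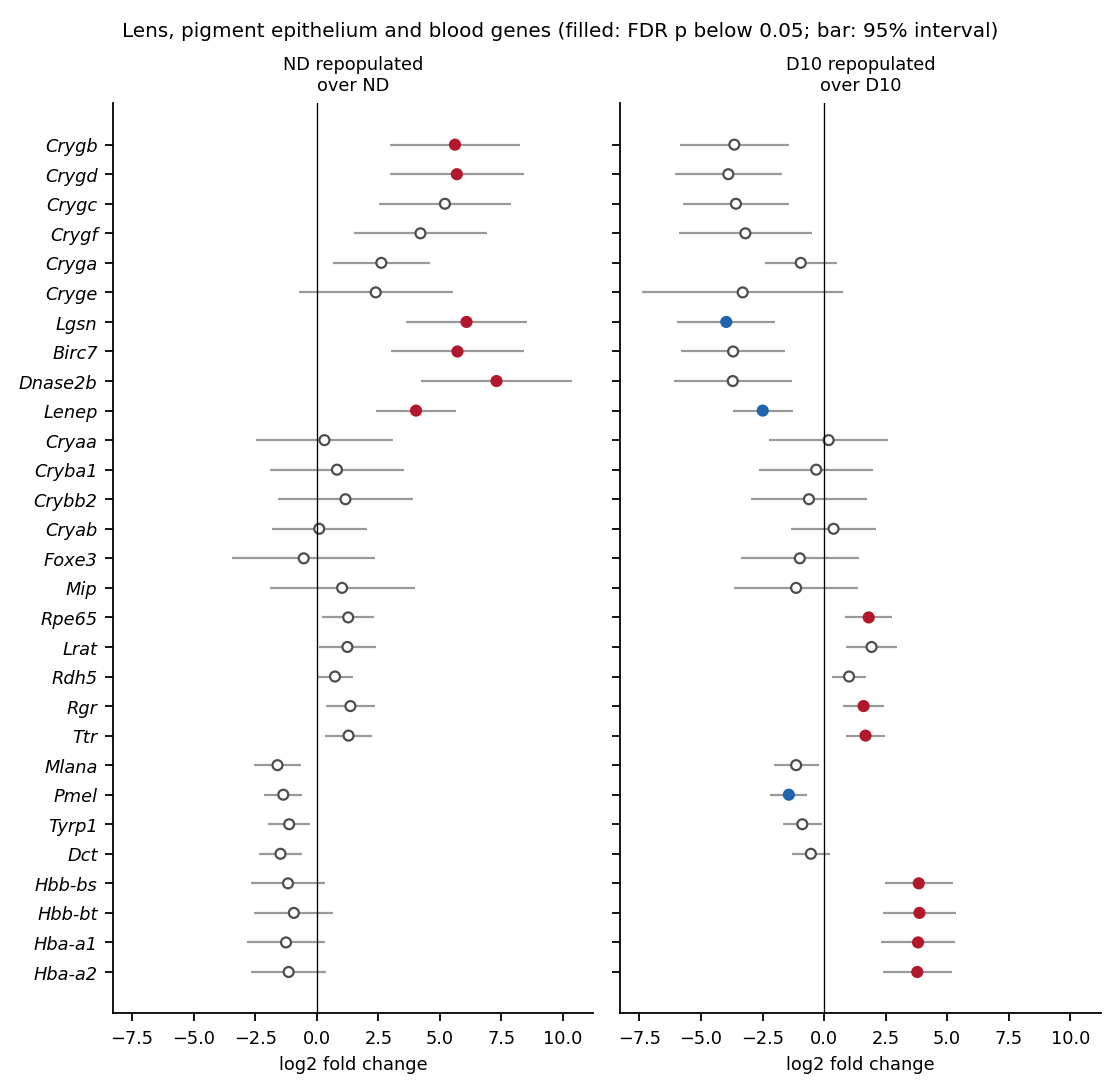
Log2 fold changes of lens, pigment epithelium and blood genes in ND repopulated over ND (left) and D10 repopulated over D10 (right) on 1 shared x axis; filled points passed an FDR p below 0.05 and bars are 95% intervals. Lens fibre genes lie on opposite sides of 0 in both panels, the visual cycle genes Rpe65, Lrat, Rdh5, Rgr and Ttr lie above 0 and Mlana, Pmel, Tyrp1 and Dct below 0 in both, and the globins are near -1 on the left and near 4 on the right.

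No gene was called in the lists named for neurons and glia of the retina. At 0.156% of all genes called, few or no calls would stand in lists of this size, so their values are given. The medians were -0.03 over 25 rod genes, 0.02 over 16 cone genes, -0.06 over 20 bipolar genes, 0.01 over 23 amacrine and horizontal genes, -0.05 over 20 ganglion cell genes, -0.02 over 27 synapse genes and 0.01 over 18 Muller glia genes. In the authors' deposited table Opn1sw, the short-wavelength cone opsin, had -0.01 (interval -0.33 to 0.31) and Glul, the glutamine synthetase of Muller glia, 0.01. Esrrb, an orphan nuclear receptor of rods, had -0.74 and was not called (the authors' p = 0.00055, FDR p = 0.217). 4 other members of these lists had an unadjusted p below 0.05 and were not called. They were Pdc, the phosducin of rods, at -0.41 (the authors' p = 0.012), Opn1mw, the middle-wavelength cone opsin, at -0.30 (p = 0.022), Onecut1, a factor of horizontal cells, at -1.13 (p = 0.0091), and Vip, an amacrine neuropeptide, at 0.45 (p = 0.032). Over all genes 2.29% had such a p. Vegfa, the main permeability factor of the diabetic retina, was at 53.6 in ND repopulated and 50.8 in ND retina (log2 0.08, interval -0.19 to 0.34).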

How the data were processed

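RNA-seq was measured in 35 retina samples, of which 11 enter this comparison. The files used are 8 tables of comparisons, with no value per sample, so the depth of each library is unknown and no count model could be fitted. Per the file headers, each table holds log2 fold changes, fold changes, p-values, FDR-adjusted p-values and the larger group mean that the authors computed for each gene. The submitters' processing notes name GRCm39 and bcl2fastq, and the deposited coordinates are on GRCm39. What aligned and counted the reads, and which test with which covariates followed, is not given in the sources used here. For D10 and D10 repopulated the table was deposited with D10 on top, and its sign was turned here. 3611 genes had a deposited p but no FDR p and were not called. The deposited FDR p equals a Benjamini-Hochberg adjustment of the deposited p to within 0.00014.

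The SE of each log2 fold change was its size divided by the normal quantile of its deposited p. The difference between both repopulation changes was tested with a normal test on those SEs, adjusted over 18263 genes, and this test was run on simulated data. The simulated errors were drawn from the same SEs, so the simulation could not check whether those SEs were right or independent of each other. An ND mean was taken as known where at least 2 of the 6 deposited tables against ND gave the same larger mean (11511 genes). For the 2842 genes with both means and a level over 1, the log2 ratio differed from the deposited log2 fold change by at most 0.075. Promoters came from RefSeq (GRCm38.p6), and no coordinate was moved between builds.

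48 gene lists (972 of 983 genes in the table) were used, and the comparison, the lists and the tests were chosen with earlier results of these data known. The genes named are the called genes, up to 12 in each direction, homeostatic microglia genes (some are not reported here), the 4 smallest p-values of each list with at least 3 called members, the 10 smallest p-values of the difference, the first 5 members of any list, and Gfap and Vegfa. The families of called genes, their overlapping neighbours and any other gene named were chosen after their values were seen. Alternatives were other thresholds, a filter on low levels, another adjustment, another SE and lists left out. Python 3.11.15, pandas 2.3.3, scipy 1.17.1, statsmodels 0.14.6 and matplotlib 3.10.9 were used.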

Additional observations from a re-analysis of the deposited data

Results flagged for a closer look

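The log2 fold changes of the non-diabetic and the diabetic repopulation comparison differed in 28 genes, by a test of the difference itself. Each value here is the log2 fold change of ND repopulated against ND minus that of D10 repopulated against D10, computed from the authors' deposited tables. Lens genes gave 11.01 for Dnase2b, 10.05 for Lgsn, 9.58 for Crygd, 9.41 for Birc7, 9.26 for Crygb, 8.78 for Crygc and 6.52 for Lenep. They were positive in the non-diabetic and negative in the diabetic comparison. Lens genes also varied between groups without repopulation, as given above. The 12 blood genes had medians of -0.59, -1.22 and -1.21 in D6, D8 and D10 against ND. These medians share the ND samples. Other positive differences were 4.96 for Abcc6, an efflux transporter, 4.11 for Ces5a, 3.77 for Hspb1, 1.05 for Antxr2 and 0.78 for Taf4b. The microglia genes had 2.12 for Cx3cr1, 1.41 for Ctss, 1.34 for C1qa and 1.31 for C1qb. All came from values near 0 in the non-diabetic comparison and negative values in D10 repopulated against D10. The list medians of D10 against ND are given above.

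Negative differences were largest for the globins, with -5.06 for Hba-a1, -5.01 for Hbb-bs, -4.93 for Hba-a2 and -4.80 for Hbb-bt, which were called higher in D10 repopulated against D10 and not called in the non-diabetic comparison. The immediate early and kinase genes had -2.38 for Egr1, -1.24 for Nr4a1, -1.15 for Sik1 and -0.88 for Sik2. Irf7 had -1.05, Drd4 -1.13, Etnppl, an enzyme of ethanolamine phosphate breakdown, -1.12, and Ciart -0.93. Etnppl was called higher in D10 repopulated against D10 (0.93) and had -0.19 in the non-diabetic comparison. 14 of the 28 genes were called in the non-diabetic and 11 in the diabetic comparison.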

How the results depend on the processing

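The 24 calls became 19 at an adjusted p below 0.01, 33 below 0.10, 23 when adjusted over every gene with a p (Ypel4 was then at 0.060) and 13 with a log2 fold change of at least 1. Without the lens genes, an alternative chosen after seeing the data, 17 remained (6 higher, 11 lower), since Ypel4 was lost as well. The 28 differing genes became 18 below 0.01 and 35 below 0.10. With SEs from a t quantile the count was 106, which includes all 28. Without lens, blood and surface epithelium genes, also chosen after seeing the data, it was 13, all of them among the 28. Leaving out low levels moved the median of the monocyte and neutrophil list to -0.23, against -1.30 over all members, and turned the sign of 2 list medians, to -0.08 for lymphocytes (0.21 over all members) and -0.002 for cell cycle (0.01). The cause of these moves was not tested. The other list medians and adjusted p-values kept their direction and side under the alternatives run on them. No paired analysis was possible because the tables hold no sample columns and the labels give no replicate numbers. For the same reason leaving out single replicates was not run, and whether 1 library decides a value, such as a lens gene's, cannot be told. The genes at levels near 0 limit the lists of monocytes, lymphocytes and border macrophages most.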

Other observations

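Lists outside the main comparisons held values as follows. All 30 ribosomal protein genes had positive log2 values in the authors' deposited table (0.07 to 0.23, median 0.13), none with an unadjusted p below 0.05, while 51.4% of all genes tested had a positive value. That share counts as positive some genes at a level of 0 in both groups, and the median over the upper 60% of levels was -0.003. The glycolysis and hypoxia list had a median of -0.11, with Hk2, a hexokinase of photoreceptors, at -0.71 (the authors' p = 0.0067) and Slc16a3, a lactate exporter, at -0.69 (p = 0.017), neither called. Among fatty acid oxidation genes, Acadm, which starts the oxidation of medium-chain fatty acids, had 0.47 (the authors' p = 0.00073, FDR p = 0.250) and Cpt1a, which admits long-chain ones to mitochondria, 0.38 (p = 0.0050), neither called. 19 of 22 endothelial genes had negative values (median -0.12), against 48.6% of all genes tested, and Cldn5, a tight junction protein, had 0.01. 4 of 19 muscle genes, among them Ckm at 0.96 (the authors' p = 0.019), had positive values with an unadjusted p below 0.05, against 1.07% of all genes, and none was called. Complement C2, an enzyme component of the classical pathway, had -1.14 (the authors' p = 0.0015, FDR p = 0.429). 40 of the 48 lists held no called gene, and 39 had a median within 0.2 of 0. With 0.156% of all genes called, most lists of this size would hold no call, so the lists without one say little about their genes.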
